A study of Mus musculus with 3 samples.

Results

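Rnf213 encodes a giant ubiquitin ligase, and its transcript was among the messages with the most sites in a list of predicted N6-methyladenosine (m6A) sites from mouse macrophages. The gene was selected on its measured number of listed sites, and 43 of the 19301 sites in the list lay inside its span on the same strand. It is 1 of 5172 annotated genes that held a site. Because the count chose the gene, its count and rank are given as a description with no test. The list came from miCLIP2, which crosslinks an anti-m6A antibody to RNA with ultraviolet light and reads the crosslinked base from the point where reverse transcription stops. The sample was poly(A)+ RNA of untreated RAW264.7 cells, an established mouse macrophage line with no genetic change named in the labels, in 3 biological replicates. Each replicate used 1 µg of RNA, a rabbit anti-m6A antibody from Synaptic Systems and 6 cycles of preamplification. Of the deposited data only the 1 pooled site list for the line was used. It gives no spread between replicates, no depth per site and no second condition.

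RNF213 combines a motor-like core of the AAA+ ATPase family with a RING domain and a further zinc-binding ligase module. It ubiquitylates bacterial lipopolysaccharide and coats intracellular bacteria with ubiquitin, is induced by interferon, binds ISG15-modified proteins and associates with lipid droplets, and variants of the human gene confer susceptibility to moyamoya disease. m6A is deposited on nascent messenger RNA by the METTL3-METTL14 complex, mostly at the DRACH motif (D is A, G or T, R is A or G, H is A, C or T), and exon junction complexes are known to keep the mark away from splice junctions.

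Each listed site carries a score from m6Aboost, a classifier that separates m6A from background crosslinking. The score ends at 1 and describes how firmly the model called a site, not what share of the transcripts is methylated. The model reads the bases around the site, the transcript region, the relative signal of the peak and the C-to-T transitions in reads that pass through it, so the motifs and regions below are in part what the model used. An adenosine absent from the list is one with no call, and its methylation is not known.

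On the mouse genome (GRCm38) Rnf213 (ENSMUSG00000070327.14) spans chr11:119393100-119487418 on the plus strand. The transcript with the longest coding sequence has 67 exons, 16716 nt of spliced RNA, a coding sequence of 15459 nt with the stop codon and a 3′ UTR of 1257 nt, and its annotation starts at the start codon with 0 nt of 5′ UTR. All 43 sites fell in its exons and 0 of them in introns. No other gene on the same strand overlaps Rnf213. The nearest listed site upstream on that strand was 122696 nt before the gene, inside Gaa, and the nearest downstream was 19876 nt after it, inside Endov. The antisense gene A930037H05Rik (chr11:119448788-119491298, minus strand) covers the 5 sites of the last exon, and 0 sites were listed on its own strand.

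By number of sites in the gene span Rnf213 was 4th, after Gm20388 with 68, Ahnak with 67 and Plec with 66, and before Mki67 with 38. Gm20388 is a very long annotated locus on chromosome 8 that overlaps many other genes, and 4 of its 68 sites lay on its own longest-CDS transcript. Counted on such transcripts, Rnf213 was 3rd. For the list as a whole, 5080 of 21951 protein-coding genes (23.1%) held at least 1 site, and the median gene with a site had 3. Rnf213 is also long, and its coding sequence was the 8th longest among the 4896 protein-coding genes with a site on their transcript. Per length the transcript held 2.57 sites per kb, close to the median of 2.59 sites per kb among the 349 genes with at least 10 sites. Among the 31 genes with a site and a coding sequence of at least 10000 nt, it was 4th in sites per kb, where the median was 0.284. As the gene was chosen for its sites, nothing is read from this rank.

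**Figure D1:**
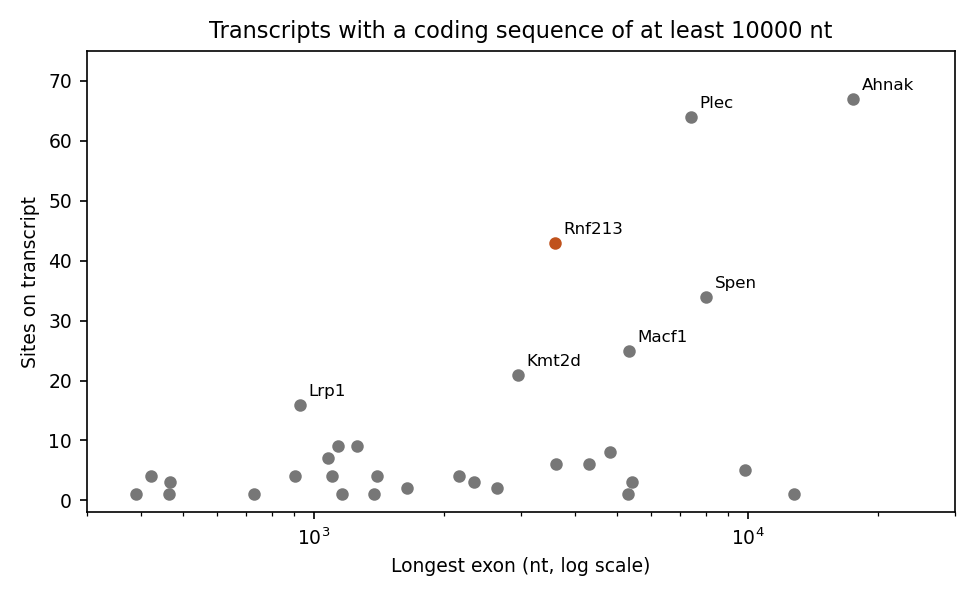
Sites on the longest-CDS transcript (y axis) against the length of its longest exon in nt (x axis, log scale) for the 31 genes with a site and a coding sequence of at least 10000 nt, 1 point per gene, with Rnf213 in orange and names for genes with many sites. Rnf213 has 43 sites and a longest exon of 3603 nt, with Ahnak (67 sites) and Plec (64) above it.

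Most Rnf213 sites were in the coding sequence. It held 39 of the 43 sites (90.7%, 95% Wilson interval 78.4 to 96.3), and the 3′ UTR held the other 4 (9.30%, interval 3.68 to 21.6). These intervals, like all those below, cover counting error only and treat neighbouring sites as independent. The coding sequence also makes up most of the Rnf213 transcript, 15459 of 16716 nt. Among genes with at least 10 sites the median share of sites in the coding sequence was 63.6%, and Rnf213 was 84th of 349 by this share. The rank takes no account of how much of each transcript is coding, so nothing is read from it. The first site was at codon 148 in exon 3, and the last lay 545 nt before the end of the gene.

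The sites were gathered in a few long exons. Exons are numbered from the 5′ end of the transcript, and 5 of the 67 are at least 400 nt long: exon 3 (468 nt), exon 20 (584 nt), exon 25 (1150 nt), exon 28 (3603 nt) and the last exon, 67 (1411 nt). Together they make up 43.2% of the spliced length and held 41 of the 43 sites (95.3%). Exon 28 alone held 24 sites, exon 25 held 8, exon 67 held 5, and exons 3 and 20 held 2 each. The other 62 exons, 35 to 284 nt long, held 2 sites, 1 in exon 9 and 1 in exon 21. Exon 28 takes up 21.6% of the transcript and carried 55.8% of its sites.

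**Figure D2:**
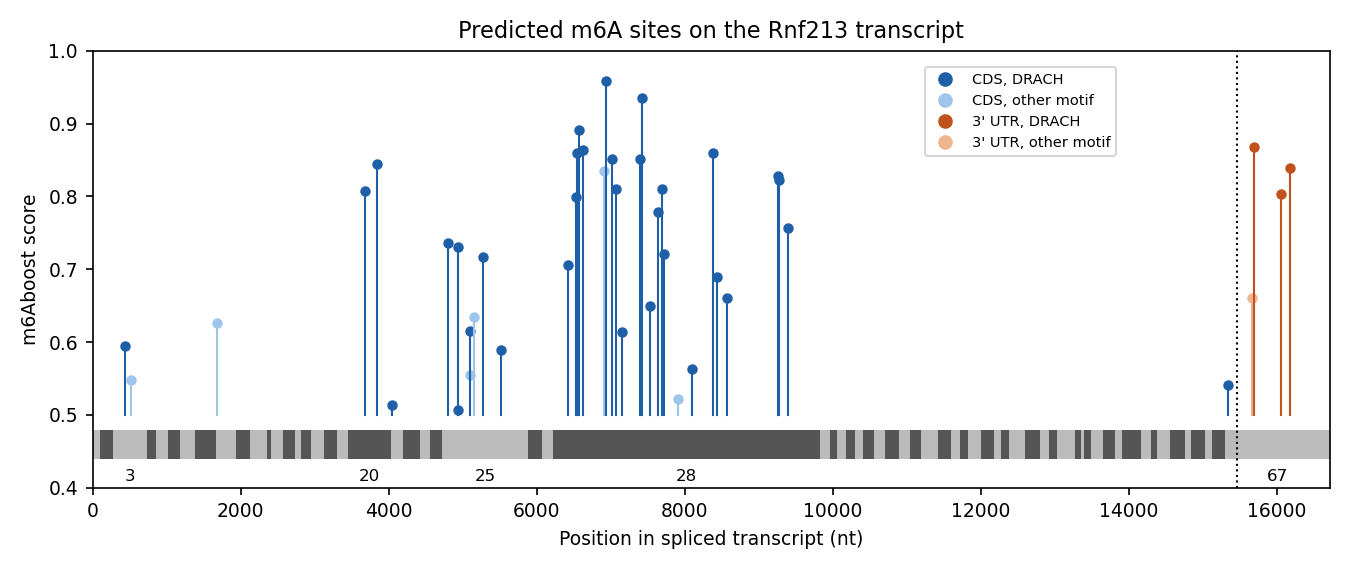
Score of each of the 43 sites (y axis) along the spliced Rnf213 transcript (x axis, nt from its annotated start), coloured by region and motif. Alternating grey blocks are the 67 exons, numbers mark those of at least 400 nt, the dotted line is the end of the stop codon, and no site lies between exon 28 and exon 67.

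DRACH adenosines occur throughout the transcript, in short exons as well as long ones. Of 392 DRACH adenosines in the spliced transcript 36 were listed (9.18%, interval 6.71 to 12.5). The background was 17277 of 364779 (4.74%) over the longest-CDS transcripts of the other genes with a site. Among the 349 genes with at least 10 sites the median share was 11.7%, and Rnf213 was 249th by it. Rnf213 was chosen for its sites, so nothing is read from either gap. Within Rnf213 the 5 long exons held 153 DRACH adenosines, of which 35 were listed (22.9%, interval 16.9 to 30.1). The 62 shorter exons held 239, of which 1 was listed (0.418%, interval 0.0739 to 2.33). Adenosines of 1 transcript in 1 pooled list are not replicates, so these shares are a description.

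In the other transcripts the listed share was lowest in internal exons under 200 nt, and it was higher from 400 nt to under 1000 nt than in internal exons of at least 1000 nt. Internal exons under 200 nt had 1 of 175 DRACH adenosines listed in Rnf213 (0.571%) and 649 of 104041 in the other transcripts (0.624%). In both, fewer than 1 in 100 such adenosines was listed. From 200 nt to under 400 nt it was 0 of 63 in Rnf213 (upper bound 5.75%) and 2.43% elsewhere, and from 400 nt to under 1000 nt it was 3 of 30 (10%) and 12.3%. The 2 internal exons of at least 1000 nt, exons 25 and 28, had 28 of 94 listed (29.8%, interval 21.5 to 39.7), and such exons elsewhere had 1605 of 18772 (8.55%). In the last exon 4 of 29 were listed (13.8%, interval 5.50 to 30.6), against 11257 of 177102 (6.36%) in other last exons. As Rnf213 was chosen for its sites, most of which lie in these long exons, nothing is read from its distance to the other transcripts in any class.

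**Figure D3:**
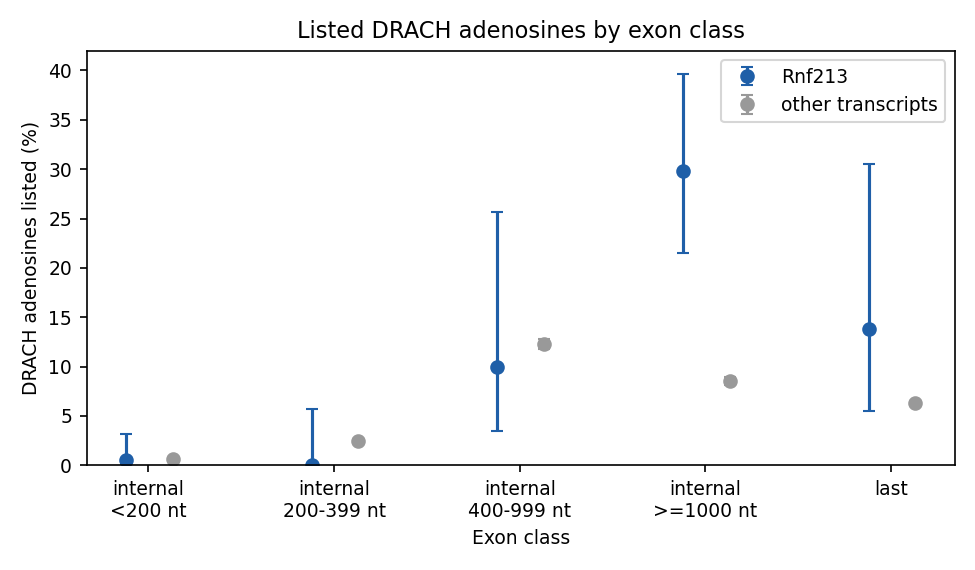
Percent of DRACH adenosines that were listed (y axis) by exon class (x axis) in Rnf213 (blue) and in the longest-CDS transcripts of the other genes with a site (grey), with 95% Wilson intervals as bars. Internal exons of at least 1000 nt stand at 29.8% in Rnf213 and 8.55% in the others.

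Distance to the nearest splice junction divided the sites in a similar way, but it is tied to exon length and is not a separate result. The 62 shorter exons are at most 284 nt long, so every adenosine beyond 200 nt from a junction lies in the 5 long exons. Of the 43 sites 4 lay within 100 nt of a junction, in exons 9, 21, 25 and 67, at 7, 17, 73 and 39 nt. Of the 255 DRACH adenosines that close to a junction 3 were listed (1.18%, interval 0.401 to 3.40), and the value in the other transcripts was 1.43%. Farther than 100 nt and up to 200 nt away 3 of 30 were listed, and beyond 200 nt 30 of 107 (28%, interval 20.4 to 37.2). The other transcripts had 11.9% listed in the middle class and 6.24% beyond it. The gap between Rnf213 and the other transcripts is again not read, because of how the gene was chosen.

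The longest stretch without a site ran from chr11:119443364 in exon 28 to chr11:119486043 in exon 67. It covers 5943 nt of spliced RNA and all of exons 29 to 66, which are 38 exons, and it contains 144 DRACH adenosines. Among them are 11 copies of GGACT, the pentamer that was listed most often in the other transcripts (17.4% of its copies). Over the whole of Rnf213, 25 DRACH adenosines sit in GGACT and 6 were listed. The 2 long internal exons had 5 of 7 copies listed, the 62 shorter exons 1 of 17. The single listed copy in a short exon, at chr11:119431604 in exon 21, had the second lowest score of the gene (0.513).

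Exon 28 (chr11:119440189-119443791) encodes codons 2076 to 3276. A search of the translated coding sequence for the Walker A pattern, the phosphate-binding loop of many ATPases, had 1 match, at codons 2381 to 2388 in this exon. The site at chr11:119441110 (AGACA, score 0.614) lies in codon 2383, inside that match. A search for the RING finger pattern of spaced cysteines and histidine had 1 match, at codons 3947 to 3985 in exon 43, which falls in the long stretch without a site. The Walker A match was thus in the exon with most sites and the RING match in an exon with none.

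The sites of exon 28 were not spread evenly over it. Cut into 3 equal stretches of 1201 nt, the exon held 11, 10 and 3 sites from 5′ to 3′, while it held 34, 19 and 21 DRACH adenosines. The share listed of all DRACH adenosines in the exon was 22 of 74 (29.7%, interval 20.5 to 40.9). Its widest gap was 699 nt, from chr11:119442530 to chr11:119443229, with 14 DRACH adenosines inside. After its last site the exon goes on for 427 nt with 4 DRACH adenosines. Exon 25 (chr11:119435911-119437060, codons 1576 to 1959) had a like share, 6 of 20 (30%, interval 14.5 to 51.9). Site densities of the 2 exons were also close, with 6.66 sites per kb in exon 28 and 6.96 in exon 25, against 3.54 in exon 67.

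Scores did differ between these exons. The lowest of the 43 scores was 0.507, the median 0.736 and the highest 0.959, and the quartiles were 0.621 and 0.837. The whole list had its median at 0.734 and its quartiles at 0.627 and 0.832. Rnf213 as a whole thus scored like the list it came from. In exon 28 the median was 0.810 and 18 of 24 sites reached 0.7. In exon 25 the median was 0.624, the highest score was 0.736, and 3 of 8 sites reached 0.7. The last exon had a median of 0.803, exon 20 had 0.807 and 0.845, and exon 3 had 0.594 and 0.549. At the upper end, 2 of the 43 sites (4.65%) reached 0.9, both in exon 28, against 8.77% of the whole list.

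**Figure D4:**
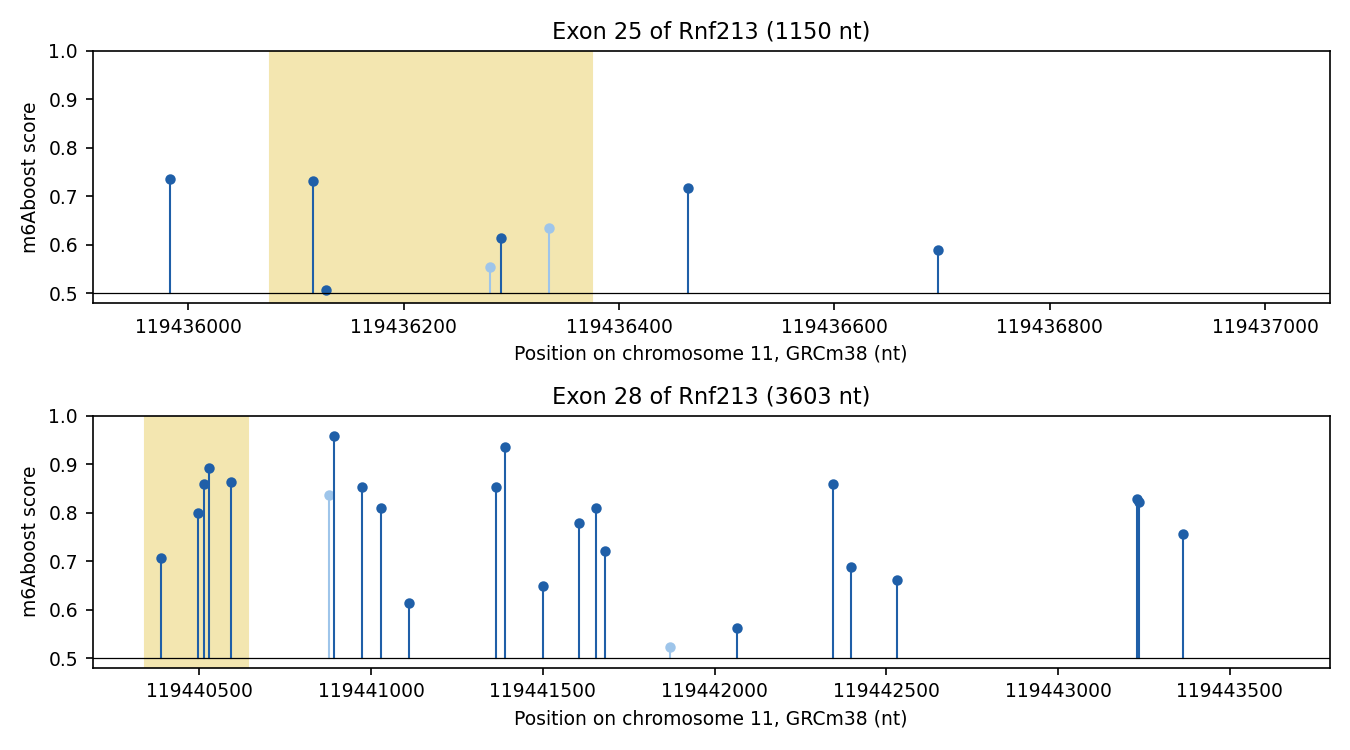
Scores (y axis) of the sites in exons 25 and 28 against position on chromosome 11 in GRCm38 (x axis, nt). Dark blue points are DRACH sites and light blue points have another motif. The shaded window in each exon is the first of 300 nt that holds 5 sites. Exon 25 reaches 0.736 and exon 28 reaches 0.959.

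The 5 highest scores show which sequences the model called most firmly. Of these, 4 are in the coding sequence of exon 28 and 1, at chr11:119486394, is in the 3′ UTR. They are printed 5′ to 3′ on the plus strand of GRCm38 with 10 nt on either side, and the capitals mark the pentamer whose middle base is the listed adenosine.
chr11:119440883-119440903, score 0.959: tgaccaaaGAACTgtttgatg
chr11:119441380-119441400, score 0.935: ctacatgaGGACTctggcctg
chr11:119440519-119440539, score 0.891: cagctcaaAGACTgtgaggcg
chr11:119486384-119486404, score 0.868: tgcctcatGAACAttccagaa
chr11:119440582-119440602, score 0.864: ggcttcaaGAACTttgtggtg
Of these 5 pentamers, 2 are GAACT, 1 is GGACT, 1 is AGACT and 1, that of the 3′ UTR site, is GAACA. The 5 lowest scores were 0.507 at chr11:119436128 (TAACT, exon 25), 0.513 at chr11:119431604 (GGACT, exon 21), 0.522 at chr11:119441869 (ATACT, exon 28), 0.541 at chr11:119486043 (AGACA, exon 67) and 0.549 at chr11:119408968 (GAACG, exon 3). They lay in 5 different exons, and 2 of them had no DRACH motif.

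DRACH was present at 36 of the 43 sites (83.7%, interval 70.0 to 91.9), and at 91.9% of the whole list. The 5 leading pentamers were GAACT with 7 sites, GGACA with 6, GGACC with 6, GGACT with 6 and AGACT with 5. The share listed differed with the base that closes the motif. In exon 28, 14 of 25 DRACH adenosines followed by CT were listed (56%), 4 of 26 followed by CC (15.4%) and 4 of 23 followed by CA (17.4%). Over the whole Rnf213 transcript the shares were 20 of 138 (14.5%), 7 of 120 (5.83%) and 9 of 134 (6.72%), and in the other transcripts 9.41%, 1.81% and 3.12%. Of the GAACT copies in exon 28, 5 of 8 were listed, as were 5 of 8 AGACT and 3 of 4 GGACT, while 0 of 9 TGACC copies were.

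The 7 sites without DRACH deviated in 3 ways. In 3 of them the pentamer ended in G, as in GAACG, in 3 a pyrimidine stood before the adenosine (GCACT and ATACT at 2 sites), and 1 had no C after it (TGATT). They are shown because they depart from the motif, with capitals as before. The second one lies near the start of exon 9 (chr11:119415039-119415298), and the leading bases of its line belong to the intron.
chr11:119408958-119408978, score 0.549: aggctgcaGAACGcaccgacg
chr11:119415035-119415055, score 0.627: ccaggtttGGACGaacctgtg
chr11:119436270-119436290, score 0.554: aggcaaatGCACTgtccagga
chr11:119436325-119436345, score 0.634: gctgacagATACTgcctgcgg
chr11:119440867-119440887, score 0.836: atcaaaaaAGACGtcatgacc
chr11:119441859-119441879, score 0.522: cagcacacATACTtttgagag
chr11:119486361-119486381, score 0.661: ctgatgaaTGATTgtcagtca
Their median score was 0.627, and that of the DRACH sites was 0.789. The AGACG site stood apart from the other 6 with a score of 0.836, and it lies 16 nt upstream of the site with the top score in the gene. The TGATT site lies in the 3′ UTR, 23 nt upstream of the GAACA site that was 4th by score.

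Neighbouring sites were common. Of the 43 sites 27 had another within 100 nt in the spliced transcript (62.8%, interval 47.9 to 75.6), and the share in the other transcripts was 60.0%. With that distance as the limit the sites formed 10 runs of at least 2 sites, and the largest, at chr11:119440877-119441110, had 5 sites over 234 nt. The median gap between neighbours was 123 nt. The closest pair was 7 nt apart in exon 28, and its flanks overlap.
chr11:119443219-119443239, score 0.828: aagtacgtGGACCttggacta
chr11:119443226-119443246, score 0.822: tggaccttGGACTaggcaccc
Both members are DRACH sites, GGACC and GGACT, and their scores are alike.

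No window of 300 nt in the coding sequence held more than 5 sites. Such windows occurred in exons 25 and 28, and 184 of the 4896 genes had a window with more than 5 somewhere in the transcript, up to 9. The first such window in each exon is printed, centred on its sites and with all 5 pentamers in capitals.
chr11:119436076-119436375, exon 25: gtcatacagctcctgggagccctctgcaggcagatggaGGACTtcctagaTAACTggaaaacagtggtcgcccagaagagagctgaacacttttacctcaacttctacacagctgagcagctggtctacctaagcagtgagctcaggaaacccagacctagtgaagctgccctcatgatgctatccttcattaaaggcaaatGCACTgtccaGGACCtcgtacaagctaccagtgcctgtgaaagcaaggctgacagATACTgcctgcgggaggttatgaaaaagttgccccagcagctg
chr11:119440341-119440640, exon 28: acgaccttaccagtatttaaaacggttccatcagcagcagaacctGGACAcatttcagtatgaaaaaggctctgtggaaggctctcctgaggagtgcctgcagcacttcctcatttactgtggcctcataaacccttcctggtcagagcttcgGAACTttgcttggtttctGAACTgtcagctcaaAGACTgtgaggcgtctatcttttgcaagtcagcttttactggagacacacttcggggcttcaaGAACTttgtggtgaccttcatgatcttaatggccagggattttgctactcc
In the exon 25 window 3 of 8 DRACH adenosines were listed and 2 sites had no DRACH motif. Its scores were 0.731 (GGACT), 0.507 (TAACT), 0.554 (GCACT), 0.615 (GGACC) and 0.634 (ATACT). In the exon 28 window 5 of 9 DRACH adenosines were listed, and all 5 sites were DRACH. Their scores were 0.706 (GGACA), 0.799 (GAACT), 0.859 (GAACT), 0.891 (AGACT) and 0.864 (GAACT). The 2 printed windows, of equal density, thus differed in motif and score. Exon 28 held other stretches as dense, and they were not all alike. The run at chr11:119440877-119441110 has 5 sites, among them the AGACG site without DRACH and an AGACA site with a score of 0.614.

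The place of the listed adenosine in its codon was much like that of DRACH adenosines in general. Of the 39 coding sites 9 were at the first codon base, 23 at the second and 7 at the third. For all DRACH adenosines of the coding sequence the counts were 89, 207 and 71. GAC was the codon of 17 of the coding sites, AAC of 5, ACT of 5 and GAA of 5, and other codons held the rest.

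Sites were listed on both sides of the stop codon, which lies in the last exon. The last coding site, at chr11:119486043, lay in codon 5115 of 5152 with a score of 0.541. The 4 sites of the 3′ UTR lay 213, 236, 597 and 715 nt after the stop codon. Those at 213 and 236 nt are printed above as the TGATT and GAACA sites. The others are both GGACA.
chr11:119486745-119486765, score 0.803: agatcaccGGACAgagagtgg
chr11:119486863-119486883, score 0.839: gggaatagGGACAgacaaaca
Their flanks are shown since 3 of the 4 sites in the 3′ UTR scored at least 0.803, above the median of the gene.

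Ahnak, a giant scaffold protein, and Plec, a cytolinker, have longer exons than Rnf213. In Ahnak all 67 sites lay in an exon of 17498 nt (3.83 sites per kb of that exon), which is nearly the whole of its 18100 nt transcript. In Plec 53 of the 64 transcript sites lay in an exon of 7412 nt (7.15 per kb), out of 15455 nt. For Mki67, a proliferation marker, it was 29 of 38 in an exon of 6836 nt (4.24 per kb), out of 10061 nt. Exon 28 of Rnf213, with 6.66 sites per kb, lay between the values of Plec and Mki67. The medians of their scores were 0.730 for Ahnak, 0.760 for Plec and 0.732 for Mki67, beside 0.736 for Rnf213.

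Likeness was measured over the 349 genes with at least 10 sites as the Euclidean distance in 4 scaled measures: share of sites in the coding sequence, sites per kb, share in the longest exon and median score. The 5 genes nearest to Rnf213 were Golga3 (distance 0.507), Zbtb7b (0.584), Spen (0.607), Axin1 (0.669) and Baz1b (0.696). Golga3, a Golgi protein, had 11 sites, all in the coding sequence, and 5 of them in its longest exon of 647 nt. Spen, a transcriptional repressor, had 34 sites on its transcript with 26 in the coding sequence. The measures came from 1 list, and the genes were not compared in any other readout.

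Other very large ubiquitin ligases had fewer sites, but Rnf213 was chosen for its number of sites, so nothing is read from that gap. Of 10 such genes, 7 held a site, where 23.1% of all protein-coding genes did, and the median over all 10, those without a site included, was 4. Trip12 had 10 and Huwe1 had 9, and those with 0 included Herc1 and Hectd4. Ubr4, whose coding sequence of 15540 nt is close to that of Rnf213, had 5 sites, 4 of them on its transcript, and its longest exon is 422 nt. Huwe1 had 0.617 sites per kb over 83 exons, with a longest exon of 1137 nt that held 0 of its 9 sites. In Birc6 the longest exon (1398 nt) held 3 of 4 sites, and in Herc2 (904 nt) it held 4 of 4. The longest exon of Trip12 is 3626 nt, and the number of sites in it is not given here. All 10 Trip12 sites lay in the coding sequence, with 0 in the 3′ UTR. Hectd4 has an exon of 2109 nt and 0 sites. Levels of these transcripts in the cells are not given by the list, and their part in the counts was not tested.

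Among 6 genes of the ISG15 pathway, the ubiquitin-like pathway whose products RNF213 binds, 2 held a site. Trim25, a ligase, had 9 sites and Isg15 itself had 2, whereas Uba7, Ube2l6, Herc6 and Usp18 had 0. Of 8 genes for linear or K63-linked ubiquitin chains, 4 held a site. Among them the conjugating enzymes Ube2l3 and Ube2d3 had 4 and 3, Rbck1 and Ube2d2a had 1 each, and Rnf31, Sharpin, Ube2n and Ube2v1 had 0. Both lists set beside the 23.1% of protein-coding genes with a site describe how many were called and nothing more.

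Marker genes were looked up to check the cell label. Of 9 macrophage markers 5 held a site, beside 23.1% of all protein-coding genes, with 13 in Cd14, 11 in Csf1r, 6 each in Spi1 and Fcgr1 and 2 in Lyz2, and Adgre1, Cd68, Itgam and Mertk had 0. Markers of fibroblasts, T cells, B cells and epithelium held a site in 0 of 3 genes each, which at a share of 23.1% over all genes sets them apart little. A site shows that the transcript was captured, and the lack of one says nothing about expression.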

How the data were processed

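miCLIP2 was done on 3 replicates of untreated RAW264.7 cells. Per the submitters' notes and the study's methods, reads were mapped with STAR (2.7.3a), handled with SAMtools (1.9) and bedtools (2.27.1) and deduplicated with UMI-tools (1.0.0), and PureCLIP peaks shared between replicates were scored. Only the authors' 1 list of sites was used, whose values are the m6Aboost score of each site above their minimum. It holds no counts, so depth per site is unknown. Sites were placed with Python (3.11.15), NumPy (2.4.6) and pysam (0.24.0) on GENCODE M21 (GRCm38), an older release than the authors used, on the transcript with the longest coding sequence. That Rnf213 transcript has support level 5 and annotation level 3, and none of the 3 annotated ones passed the authors' filter (support level of at most 3 and annotation level of at most 2). Shares have 95% Wilson intervals, and no test was possible. Placement was checked on simulated sites. Named were the other genes among the 5 with most sites, members of fixed lists, the 5 most alike genes, and of the sites the 5 highest and lowest scores, those outside DRACH or the coding sequence and those of the densest windows of 300 nt. Others named (Walker A site, closest pair, exon 28 window, Gm20388 transcript) were picked after their values were seen. The members and lists were chosen with earlier results of these data known. Lipid droplet and AAA+ lists are in the closing section. Some genes that this rule names are not reported here.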

Additional observations from a re-analysis of the deposited data

How the results depend on the processing

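Of 62 recomputed values 41 stayed within their limits and 21 moved. The limit was a factor of 1.5 for counts, ranks and sites per kb, the 95% Wilson interval for shares, and 1 SD of the site scores for the median score. With a minimum score of 0.7, Rnf213 kept its rank and had 26 sites, 23 of them in the coding sequence, 96.2% at DRACH, 1.56 sites per kb, 6.38% of DRACH adenosines listed and 1 site within 100 nt of a junction. With a minimum of 0.9, 2 sites were left, both in the coding sequence and in exon 28, 100% at DRACH, with 0 in the 3′ UTR, 0 near a junction, 0% with a neighbour, 0.12 sites per kb, 0.51% of DRACH adenosines listed, a median score of 0.947 and rank 72. A stricter minimum removes sites by construction. The share with a neighbour was 44.2% within 50 nt and 90.7% within 200 nt, and 7 sites lay within 200 nt of a junction. Counting GGACT alone, 24% of the copies were listed. Merging sites within 5 nt, the longest spliced transcript, sites in annotated exons only, giving each site to the longest gene and RRACH in place of DRACH moved no value past its limit. The closest Rnf213 sites were 7 nt apart and all 43 lay in exons. Merging and the exon limit thus could not change the sites of the gene and say nothing about stability. No same-strand gene overlaps Rnf213, so giving each site to the longest gene could not change its sites, only its rank. The longest spliced transcript gave the same values as the main one, so it is no separate check. The 2 transcripts added after seeing the data were Rnf213-202 and the RefSeq curated one, whose first exon lies upstream of the GENCODE start. Neither moved a value past its limit, and Rnf213-202 gave the same values as the main transcript. A shorter RefSeq transcript, which ends at chr11:119468996, holds 38 of the sites and was not run as an alternative. The transcript of longest span that passes the support filter was not run, because 0 of 3 passed. No replicate could be left out of the pooled list. No paired analysis was possible because there is 1 condition and no value per replicate.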

Other observations

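Lists that touch the other known sides of RNF213 were also looked up. Of 4 lipid droplet genes, Abhd5, the co-activator of the triglyceride lipase Pnpla2, had 2 sites, and Pnpla2, Plin2 and Plin3 had 0, so 1 of 4 held a site, close to the 23.1% of all protein-coding genes. Of 4 genes for other giant AAA+ proteins 2 held a site, beside the same 23.1%. The ribosome assembly factor Mdn1 had 9 sites and the dynein heavy chain Dync1h1 had 7, while Dync2h1 and Dnah8 had 0. Mdn1 has the longer coding sequence (16767 nt, beside 15456 nt without the stop codon in Rnf213) and 102 exons with the longest at 1257 nt. It had 0.501 sites per kb, where Rnf213 had 2.57. Because of how Rnf213 was chosen, nothing is read from that gap.

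Syne1 and Dst, with the longest coding sequences among genes with a site, had 4 and 1 sites. The longest exon of Syne1 (2161 nt) held all 4 of its sites, and that of Dst (5292 nt) held 0. Macf1, next by coding length, had 25 sites on its transcript, 8 of them in its longest exon of 5331 nt. These genes were picked after their values were seen. Read numbers on these transcripts are not in the list, and their part in the counts was not tested.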
